A study of Mus musculus with 5 samples.

Results

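The 32 genes described here encode the enzymes of glycolysis, the transporters that carry glucose in and lactate out, and the hypoxia-inducible factor Hif1a with a group of genes it is known to induce. They were taken by name from the 21995 genes of a single-cell count matrix of sorted mouse neutrophils, by a rule that reads no level or change, although the list was drawn up with earlier results of these data known. They fall into 3 transporters (Slc2a1, Slc2a3, Slc16a3), the enzymes and regulators of the upper pathway (Hk1, Hk2, Hk3, Gpi1, Pfkl, Pfkm, Pfkp, Pfkfb3, Pfkfb4, Aldoa, Aldoc, Tpi1), those of the lower pathway (Gapdh, Pgk1, Pgam1, Eno1, Eno1b, Eno2, Eno3, Pkm, Ldha, Pdk1) and the hypoxia genes (Hif1a, Egln3, Ankrd37, Bnip3, Bnip3l, Hilpda, Vegfa). Each was followed in activated neutrophils, in macrophages and through 4 stages of neutrophil maturation, in each of 2 pools of mice. Where a pair of values is given for a group, the first is that of pool YO1 and the other that of pool YO2.

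Glycolysis splits glucose into pyruvate in the cytosol, and lactate dehydrogenase then turns pyruvate into lactate, which regenerates the NAD+ that the pathway needs. Mature neutrophils hold few mitochondria and are known to draw most of their ATP from glycolysis, whereas their dividing precursors in the bone marrow also respire. When oxygen is low, prolyl hydroxylases no longer mark the Hif1a protein for destruction, and the factor binds short DNA elements whose core reads ACGTG, or in some genes reads GCGTG instead, beside its target genes, which include most glycolytic genes as well as Bnip3, Vegfa, Hilpda, Egln3 and Ankrd37. Hif1a is controlled mostly at the protein level, so its mRNA is not a measure of its activity.

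The study profiled neutrophils of C57BL/6 mice kept in steady state without specific pathogens, taken from intestine, spleen, liver, lung, bone marrow and blood. Young and old mice entered together; the old ones were 20 months old, and the young ones are given as 10 weeks in the sample labels and as 8 weeks in the design text. Live cells positive for CD11b and Ly6G were sorted, tagged by sample, mixed and captured in nanowells on 2 BD Rhapsody cartridges, and mRNA molecules were counted as UMIs (unique molecular identifiers). The cartridges, called pool YO1 and pool YO2, are the only replicates that the barcodes used here carry, so tissue and age cannot be told apart within any group below, and no comparison of tissues or ages was made.

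Of 20352 barcodes in YO1 and 17720 in YO2, 19505 and 17215 held 200 or more UMIs and 100 or more genes with a mitochondrial share below 20% and were kept, with medians of 1231 and 1454 UMIs per cell. Cells were then gated on marker UMIs, none of which belongs to the 32 genes. Activated neutrophils carried at least 3 UMIs of Il1a, Icam1 and Nr4a3 together (39 cells in YO1, 229 in YO2). Macrophages carried at least 3 UMIs of the complement genes C1qa, C1qb and C1qc and less than 2% S100a8 and S100a9 (229 and 514 cells). Cycling precursors had at least 2 UMIs of Mki67 and Top2a (720 and 63 cells), Ltf-positive cells at least 5 UMIs of lactoferrin (2212 and 448 cells), Ngp-positive cells at least 10 UMIs of Ngp with Ltf below 5 (440 and 33 cells), and mature neutrophils at least 2% S100a8 and S100a9 with Ngp below 3 and Ltf below 5 (10235 and 9834 cells). Beyond these definitions, cycling cells also needed at least 3 UMIs of granule genes, activated cells at least 1% S100a8 and S100a9, and all but macrophages fewer than 3 C1q UMIs, to keep out cells of other types. The gates took in 71.1% of YO1 cells and 64.6% of YO2 cells.

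The gates carried the markers they were named for, with exceptions that touch some results. The macrophage gate held 14745 CPM of 12 macrophage markers in YO1 and 12973 CPM in YO2 (CPM is a gene's count per 1e6 UMIs of the same sum of cells), while Ly6g, the sort marker, was at 15.7 and 16.6 CPM there, against 138 and 94.5 CPM in mature neutrophils. In the activated gate of YO1, all 5 endothelial markers were present and summed to 3158 CPM, and in that of YO2 4 of 5 were at 0 and the sum was 15.9 CPM. Other marker sums differed from those of mature cells there too. The 8 mature neutrophil markers, which include the gating genes S100a8 and S100a9, summed to 31950 and 33994 CPM, against 87414 and 70702 CPM in mature cells. The dendritic cell markers summed to 62.8 and 71.6 CPM, against 7.58 and 6.89 CPM in mature cells. For the macrophage markers the sums were 1750 and 570 CPM against 724 and 643 CPM. The alveolar macrophage markers summed to 431 and 276 CPM in activated cells, against 54.5 and 60.6 CPM in mature cells, those of B cells to 188 and 250 CPM against 59.2 and 73.8 CPM, and those of eosinophils to 53.8 and 252 CPM against 57.4 and 45.7 CPM. Their part in the activated differences was not tested. The Ngp-positive gate of YO2 held 32927 CPM of 3 plasma cell genes, against 10.8 CPM in YO1, and 1 of its 33 cells held 3538 of those 3566 UMIs. The same genes summed to 3457 CPM in macrophages and 660 CPM in mature cells of YO2. When cells with any UMI of 3 endothelial genes or with 20 or more UMIs of Igha and Jchain were left out, 22 members were lower in macrophages than in mature cells. With those cells in, 22 members were lower too, against 28.0% of all genes. The share of all genes without those cells is not given here. The cycling gate of YO1 held 4643 CPM of 4 azurophil granule genes and that of YO2 17.6 CPM. The pools share 406 cell numbers, and no doublets were removed.

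**Figure D1:**
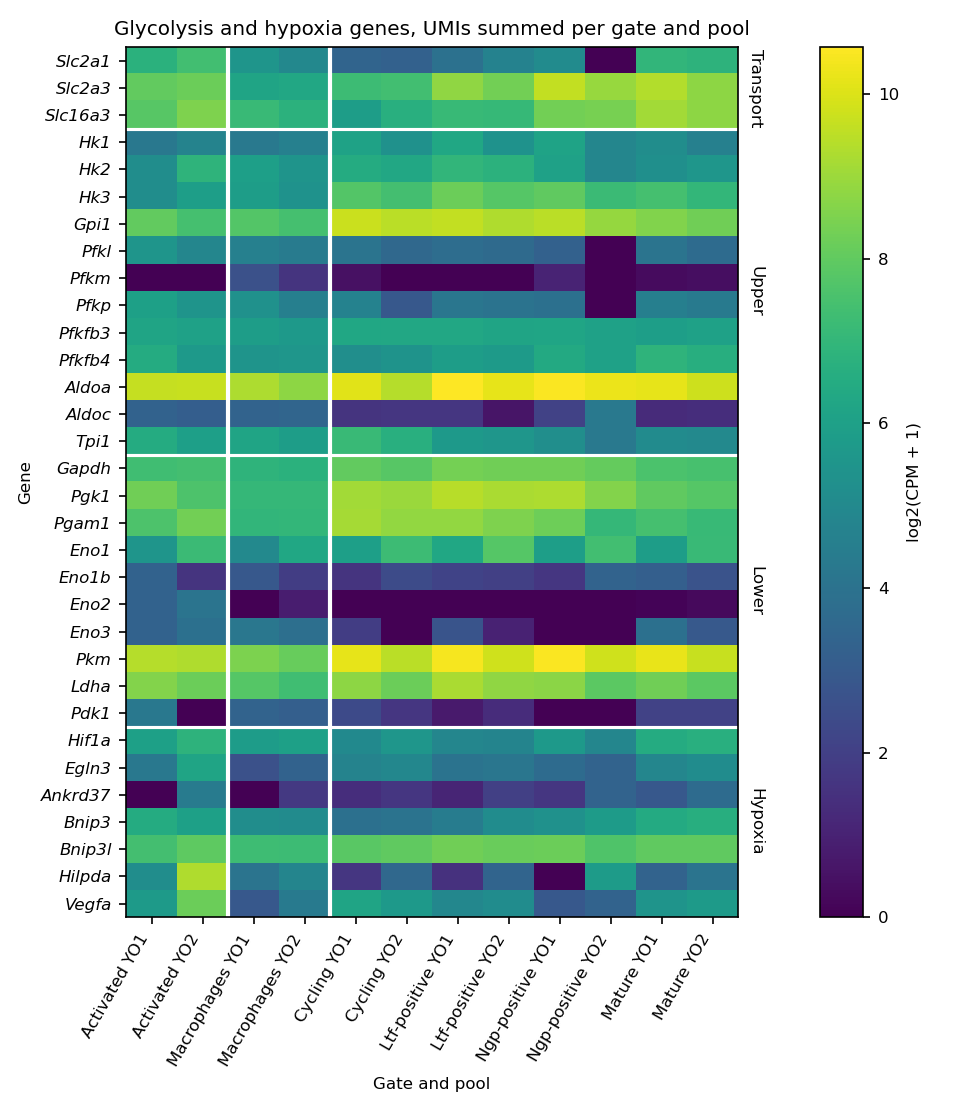
Levels of the 32 genes as log2(CPM + 1), by pool, in activated neutrophils, macrophages and the 4 stages from cycling precursors to mature neutrophils. Rows follow the order transport, upper glycolysis, lower glycolysis, hypoxia; Hilpda is at 636 CPM in activated cells of YO2 and at most 55.4 CPM in every other column, and Eno2 and Pfkm are near 0 nearly everywhere.

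All 32 genes had UMIs in at least 1 gate, and the heat map of member levels shows them by pool. Pfkm, the muscle form of phosphofructokinase, was the rarest with Eno2, the neuronal enolase. It stood at 0 CPM in activated cells of both pools, at 5.24 and 1.97 CPM in macrophages and at no more than 1.08 CPM in any stage. It did not pass the filter on low counts, and the other 31 genes were tested among 9883. Some members differed between pools in the same direction in all 6 gates. Eno1, the ubiquitous enolase, was higher in YO2 in every gate, by 1.27 to 1.67 on the log2 scale, as were Hilpda and Ankrd37, whereas Gpi1, Pfkl, Pfkp, Tpi1, Pgk1, Pkm and Ldha were lower in YO2 in every gate. Pgk1 was nearly level in macrophages (-0.011 on the log2 scale). In Ngp-positive cells Pfkl and Pfkp were at 0 in YO2 and Hilpda at 0 in YO1. How many of all genes keep a direction in every gate was not counted. The pool entered each fit as a block. Every p-value below rests on how gate differences vary between the 2 pools, with 1 estimate of spread shared by all 6 gates. A member can therefore be called though its pools disagree in the gates compared. No p-value measures the variation between individual mice, and every interval covers counting error alone. Where groups are said not to overlap, the share of all genes that separate in the same way was not counted.

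Between cycling precursors and mature neutrophils the transporters and several hypoxia genes were higher at the later stage, while 4 glycolytic enzymes were lower. Of the 31 members tested, 10 were higher in mature than in cycling cells (29.0% of all 9883 genes were) and 4 were lower (30.1% of all genes) by edgeR's quasi-likelihood test at a Benjamini-Hochberg adjusted p under 0.05. The members' median log2 difference was 0.49, against 0.00 for all genes. Scaling to total UMIs in place of TMM moved the median of all genes by -0.43 and gave 9 higher and 6 lower members. The TMM factors were 0.835 and 0.787 for mature and 1.14 and 1.02 for cycling cells, so the fitted differences lie above the ratios of the CPM. Mature cells carry far fewer UMIs than cycling cells (median 1026 and 1345 against 6200 and 6919). The mature gate asks for a share of S100a8 and S100a9 with few Ngp and Ltf UMIs, and every other gate for a minimum of UMIs. Deep cells pass such a minimum more easily, so UMIs per cell depend on the gates too, by an amount that was not tested. CPM gives a gene's share of the mRNA counted, so the UMIs per cell are given beside it for some members. Where they are not given, a higher CPM does not by itself mean more UMIs per cell.

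The glucose transporter Slc2a1 had 123 and 112 CPM in mature cells of YO1 and YO2, against 9.66 and 8.80 CPM in cycling cells. Both mature values lay far above both cycling ones, and the fitted log2 difference was 4.05 ± 0.40 (SE, edgeR adjusted p = 1.96e-07). Per cell it was higher too, at 0.148 and 0.177 UMIs in mature cells, against 0.0667 and 0.0635 in cycling cells. Slc16a3, the transporter that exports lactate, had 549 and 442 CPM in mature cells and 58.8 and 101 CPM in cycling cells. Its groups did not overlap, with a log2 difference of 3.15 ± 0.36 (edgeR adjusted p = 9.64e-07), and the count per cell was 0.658 and 0.698 UMIs in mature cells, against 0.406 and 0.730 in cycling cells. Slc2a3, the high-affinity glucose transporter, had its highest CPM in Ngp-positive cells of both pools. It stood at 150 and 163 CPM in cycling, 455 and 318 CPM in Ltf-positive, 767 and 499 CPM in Ngp-positive and 649 and 433 CPM in mature cells. Slc2a3 did not pass the test at the steps into and out of the Ngp-positive stage (log2 differences 0.72 and -0.15). Its mature level exceeded the cycling level by 2.20 ± 0.33 on the log2 scale (edgeR adjusted p = 2.14e-05), although mature cells held fewer Slc2a3 UMIs each, 0.777 and 0.684, than cycling cells, 1.03 and 1.17.

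**Figure D2:**
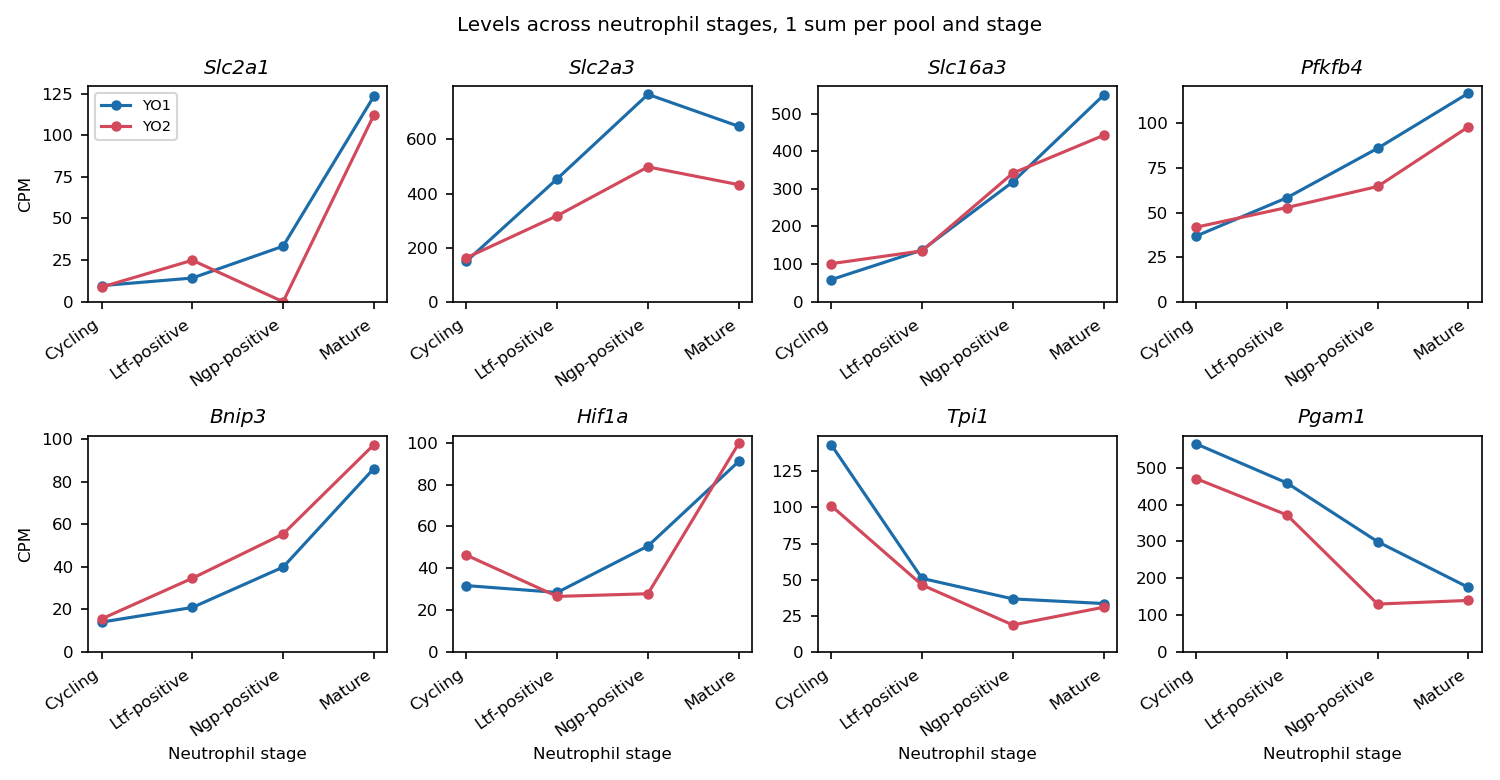
CPM of 8 members by pool across cycling, Ltf-positive, Ngp-positive and mature neutrophils. Slc2a1, Slc16a3, Pfkfb4, Bnip3 and Hif1a are highest in mature cells of both pools, and Tpi1 and Pgam1 in cycling cells of both.

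Among the hypoxia genes, Bnip3, which marks mitochondria for removal by autophagy, had 86.3 and 97.5 CPM in mature cells, against 13.9 and 15.4 CPM in cycling cells. Its level was higher at each later stage in both pools, with 20.8 and 34.5 CPM in Ltf-positive and 39.8 and 55.4 CPM in Ngp-positive cells. The Ngp-positive value of YO2 rests on few UMIs, since 3 counts make 27.7 CPM there. The log2 difference between the ends was 3.06 ± 0.27 (edgeR adjusted p = 4.10e-08). Per cell, Bnip3 UMIs rose by much less than the CPM did. Hif1a itself had 91.1 and 99.7 CPM in mature cells and 31.6 and 46.2 CPM in cycling cells, a difference of 1.83 ± 0.27 (edgeR adjusted p = 1.84e-05). As with Slc2a3, that is a larger share of fewer UMIs per cell, because mature cells held 0.109 and 0.157 Hif1a UMIs each, against 0.218 and 0.333 in cycling cells. Ankrd37, an ankyrin repeat protein induced by hypoxia, had 6.44 and 11.98 CPM in mature cells and 1.61 and 2.20 CPM in cycling cells, and Hilpda, which blocks the breakdown of lipid droplets, had 9.29 and 15.8 CPM against 2.21 and 10.998 CPM. Their log2 differences were 2.38 ± 0.58 and 1.81 ± 0.71 (edgeR adjusted p = 0.0020 and 0.0362). In UMIs per cell, Hilpda was lower in mature than in cycling cells of both pools, and Ankrd37 was lower in those of YO1. For Hilpda the share of mature cells holding it was near that of B cells, which stand in here for free RNA. Free RNA itself was not measured. With every cell thinned to 500 UMIs, 0.348 and 0.549% of mature cells held it, against 0 of 717 and 0 of 63 cycling cells (exact upper limits 0.513 and 5.69%), and so did 0.333 and 1.001% of B cells, so the mature shares did not exceed that of B cells beyond counting error. Bnip3l, Egln3 and Vegfa did not pass the test between these stages.

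Within glycolysis, Pfkfb4, one of the enzymes that set the level of the phosphofructokinase activator fructose 2,6-bisphosphate, had 36.8 and 41.8 CPM in cycling, 58.3 and 52.8 CPM in Ltf-positive, 86.1 and 64.6 CPM in Ngp-positive and 117 and 98.1 CPM in mature cells. The mature level was above the cycling one by 1.97 ± 0.24 on the log2 scale (edgeR adjusted p = 1.72e-06). Per cell, however, mature neutrophils of both pools held fewer Pfkfb4 UMIs than cycling cells. A pair of rare enolases was higher too. Eno3, the muscle form, had 14.1 and 6.83 CPM in mature cells and 2.82 and 0 CPM in cycling cells (edgeR adjusted p = 5.35e-04), and Eno1b had 8.15 and 5.47 CPM against 2.01 and 4.40 CPM (edgeR adjusted p = 0.0063). Reads of Eno1b may come in part from Eno1, of which it is a near-identical copy, and the reverse.

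Tpi1, Pgam1, Gpi1 and Pgk1 were lower in mature cells. Tpi1, which interconverts the triose phosphates, had 33.3 and 30.8 CPM in mature cells, against 143 and 101 CPM in cycling cells, and fell by 1.52 on the log2 scale with an SE of 0.21 (edgeR adjusted p = 7.97e-06). Pgam1, phosphoglycerate mutase, had 175 and 139 CPM in mature cells and 565 and 471 CPM in cycling cells, a log2 difference of -1.31 ± 0.34 (edgeR adjusted p = 0.0033). In UMIs per cell the gap was wider, at 0.209 and 0.22 in mature cells against 3.90 and 3.40 in cycling cells. Gpi1, glucose phosphate isomerase, had 376 and 314 CPM in mature and 844 and 710 CPM in cycling cells (log2 difference -0.76 ± 0.27, edgeR adjusted p = 0.0211). Pgk1, phosphoglycerate kinase, had 252 and 219 CPM in mature and 551 and 499 CPM in cycling cells (log2 difference -0.74 ± 0.27, edgeR adjusted p = 0.0268). Gapdh, Ldha, Pkm, Aldoa, Eno1 and the hexokinases did not pass the test; Gapdh and Ldha differed by 0.03 each, with SEs of 0.25 and 0.27.

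Of the members not called between mature and cycling cells, some had their highest level at a stage in between and others kept a narrow range. Hk1, the hexokinase of most tissues, had 66.8 and 39.6 CPM in cycling, 76.9 and 40.6 CPM in Ltf-positive, 68.8 and 27.7 CPM in Ngp-positive and 35.4 and 23.1 CPM in mature cells. Hk2 had 90.6 and 79.2 CPM in cycling, 124 and 110 CPM in Ltf-positive, 64.5 and 27.7 CPM in Ngp-positive and 37.6 and 46.7 CPM in mature cells. Both were lower in mature than in cycling cells of each pool without passing the test (log2 differences -0.45 ± 0.27 and -0.61 ± 0.31, edgeR adjusted p = 0.155 and 0.0989). Pkm, which makes pyruvate and ATP, had 1153 and 704 CPM in cycling, 1362 and 887 CPM in Ltf-positive, 1459 and 896 CPM in Ngp-positive and 1209 and 824 CPM in mature cells, so every stage of YO1 was above every stage of YO2. Gapdh had 259 and 224 CPM in cycling, 327 and 313 CPM in Ltf-positive, 310 and 268 CPM in Ngp-positive and 191 and 179 CPM in mature cells, with its highest level in Ltf-positive cells of both pools. Its many processed pseudogenes may share reads with it. Pfkfb3, the partner of Pfkfb4, stayed between 60.7 and 80.5 CPM in all 4 stages of both pools. Bnip3l, a relative of Bnip3 with the same role in mitochondrial removal, stayed between 203 and 310 CPM. Pdk1, the kinase that shuts pyruvate dehydrogenase, had at most 4.23 CPM in any stage.

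Leaving out each of the 4 mature and cycling sums in turn kept 8 of the 14 calls every time, those of Slc2a1, Slc2a3, Slc16a3, Bnip3, Hif1a, Pfkfb4, Tpi1 and Pgam1, and gave 9 to 12 called members. Without the cycling cells of YO1, 9 members were called, and Ankrd37, Eno3, Hilpda and Pgk1 lost their calls (Eno3 is at 0 in the cycling cells left, so no fold is given). Without the mature cells of YO1, 9 were called, and Ankrd37, Gpi1, Hilpda and Pgk1 lost theirs, with Hilpda at a log2 difference of 0.71. Gpi1 and Pgk1 also lost their calls without either YO2 sum, and Eno1b could be tested in 1 of the 4 fits alone. The adjusted p of a lost call ran from 0.0561 to 0.423. Stress genes known to rise during tissue dissociation (Fos, Jun, Egr1, Hspa1a, Hspa1b, Atf3) summed to 5395 and 7436 CPM in mature cells and to 225 and 853 CPM in cycling cells, and their part in these differences was not tested.

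Step by step, the changes were uneven. From cycling to Ltf-positive cells 9 members were higher (14.0% of all genes) and 1 was lower (18.9% of all genes), with a median of 0.60 over members against -0.05 over all genes. Slc2a3 (log2 difference 1.63 ± 0.33, edgeR adjusted p = 0.0011) and Slc2a1 (1.26 ± 0.44, 0.0349) were among those higher, as was Slc16a3 (1.19 ± 0.35, 0.0139). Bnip3 (1.16 ± 0.28, edgeR adjusted p = 0.0044) and Pfkfb4 (0.92 ± 0.24, 0.0073) already differed at this step. The enzymes Aldoa (0.96 ± 0.30, edgeR adjusted p = 0.0202), Ldha (0.86 ± 0.27, 0.0213), Eno1 (0.77 ± 0.22, 0.0134) and Gapdh (0.73 ± 0.25, 0.0335) were higher at this step and, unlike the others, not called over the whole course. Aldoa, an aldolase, had 1525 and 1176 CPM in Ltf-positive cells, against 1087 and 669 CPM in cycling cells, and Ldha 593 and 454 CPM against 436 and 290 CPM. Tpi1 was the member that was lower, at 50.8 and 46.2 CPM in Ltf-positive cells and 143 and 101 CPM in cycling cells (log2 difference -1.03 ± 0.21, edgeR adjusted p = 0.0014).

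These step calls rest on few sums. With total UMIs as the scale, which shifts the median of all genes by -0.34, 6 members were higher and 2 lower, and without cells with endothelial or plasma cell UMIs 17 were higher and 2 lower. Leaving out those cells also drops the activated sum of YO1 (23 cells left), so the spread shared by the fit differs. The share of all genes called under either setting is not given here, so neither count is set against the main one. Without the cycling cells of YO1 edgeR called 0 members (6 at an unadjusted p under 0.05), without those of YO2 10, without the Ltf-positive cells of YO1 3 (Bnip3, Slc2a1 and Slc2a3) and without those of YO2 2 (Slc2a3 and Tpi1). Lost calls had adjusted p from 0.0523 to 0.473, and without the cycling cells of YO1 Slc16a3 stood at 0.68 and Pfkfb4 at 0.56.

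From Ltf-positive to Ngp-positive cells 0 of 31 members passed the edgeR test in either direction (1.21% of all genes were higher and 1.31% lower, 2.52% in all). At an unadjusted p under 0.05 there were 10, 5 in each direction, and DESeq2 called 2, Slc16a3 as higher and Ldha as lower. Slc16a3 came nearest in edgeR, with 318 and 342 CPM in Ngp-positive cells, against 137 and 135 CPM in Ltf-positive cells (log2 difference 1.26 ± 0.34, edgeR adjusted p = 0.0607). The cell of YO2 with the plasma cell UMIs enters this comparison and the next. Leaving out cells with endothelial or plasma cell UMIs as above, 1 of them from the Ngp-positive gate of YO2, gave 4 called members (Slc16a3 as higher, Hk2, Pgam1 and Vegfa as lower) here and 10 in the next comparison. The share of all genes called without those cells is not given here.

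From Ngp-positive to mature cells 4 members were higher (5.80% of all genes) and 1 was lower (3.58% of all genes), against 9.38% of all genes called either way. Slc2a1 had 123 and 112 CPM in mature cells and 33.3 and 0 CPM in Ngp-positive cells (log2 difference 2.05 ± 0.43, edgeR adjusted p = 0.0055). Vegfa, the growth factor of blood vessels, had 43.7 and 52.7 CPM in mature cells and 6.45 and 9.23 CPM in Ngp-positive cells (2.67 ± 0.69, edgeR adjusted p = 0.0192). It had been at 71.2 and 50.6 CPM in cycling cells, so its level was lowest in Ngp-positive cells, and the cycling and mature values overlapped. The Ngp-positive value of YO2 lies below 3 counts, which make 27.7 CPM there. Bnip3 gained a further 1.08 ± 0.29 (edgeR adjusted p = 0.0236). Eno3 had 279 UMIs in mature cells and 0 in Ngp-positive cells (edgeR adjusted p = 0.0164). That is 3.47-fold higher against a floor of 3 counts over the group, and the lower counting limit of the ratio was 2.81. Pgk1 was the member that was lower, with 252 and 219 CPM in mature cells, against 616 and 388 CPM in Ngp-positive cells (-1.003 ± 0.28, edgeR adjusted p = 0.0330). Slc2a1 alone kept its call without each of the 4 sums in turn. Without the Ngp-positive or the mature cells of YO1 it was the 1 member called, with Pgk1 at -0.41 without the Ngp-positive cells of YO1 and Slc2a1 itself then at 0 in the Ngp-positive cells left. Without the mature cells of YO2 3 members were called (Eno3, Slc2a1 and Vegfa), and without the Ngp-positive cells of YO2 4 (all but Vegfa). With total UMIs 5 members were higher and 3 lower.

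Activated neutrophils of YO2 carried far more Hilpda and Vegfa than mature ones. In YO1 Vegfa was close to level, and Hilpda rested on 4 UMIs. Activated cells carried less of Hk3, Slc2a3 and some other glycolytic members. Of the 31 tested, 3 were higher, Hilpda, Vegfa and Eno2 (7.61% of all genes were higher), and 7 were lower, Hk3, Slc2a3, Slc16a3, Pfkfb4, Gpi1, Pkm and Bnip3 (10.9% of all genes were lower). The members' median log2 difference was -0.37, against -0.12 for all genes. With total UMIs as the scale, which shifts the median of all genes by 0.47, the split turned to 7 higher (Hilpda, Vegfa, Eno2, Hk2, Pfkl, Pfkp, Tpi1) and 3 lower (Hk3, Slc2a3, Gpi1). No called member changed its sign between the scales, but 7 members that were not called did, namely Slc2a1, Hif1a, Ldha, Pgk1, Pfkfb3, Pdk1 and Ankrd37, so no direction is given for these. The TMM factors were 1.37 and 1.02 for activated cells and 0.835 and 0.787 for mature cells, and the fitted differences therefore lie below the ratios of the CPM.

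**Figure D3:**
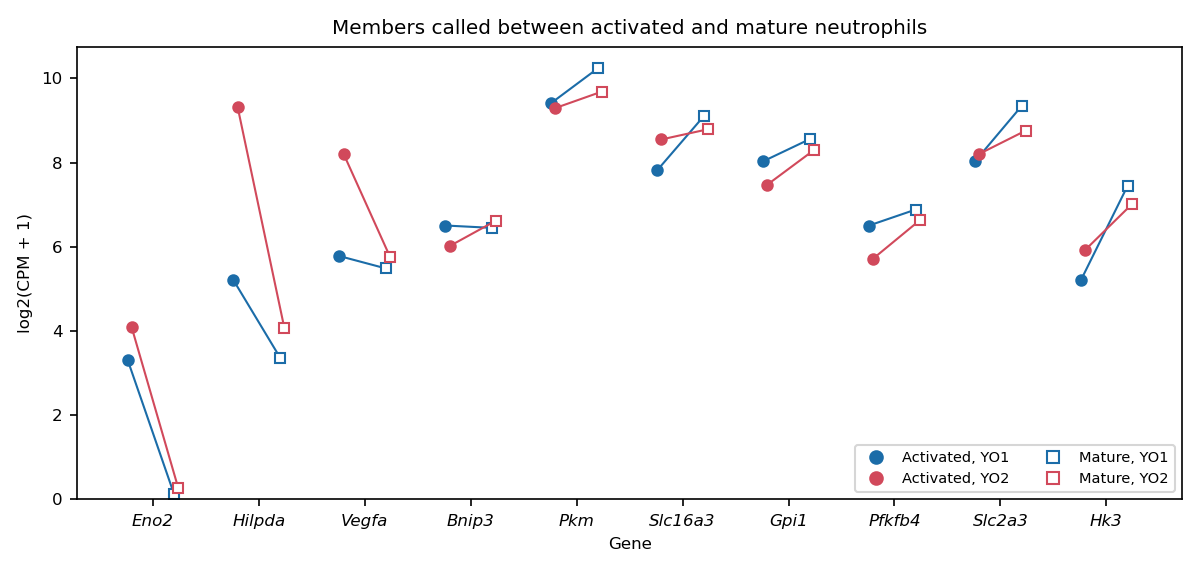
Levels, as log2(CPM + 1), of the 10 members that passed the test between activated and mature neutrophils, with activated cells left of mature cells and 1 point per pool. Hilpda and Vegfa are high in activated cells of YO2, while Hk3, Slc2a3 and Gpi1 are lower in activated than in mature cells of both pools.

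Hilpda lies on chromosome 6 (bases 29272488 to 29275446 of GRCm38, plus strand, protein coding) and had 35.9 CPM in activated cells of YO1 and 636 CPM in those of YO2, against 9.29 and 15.8 CPM in mature cells. The activated value was above the mature one in both pools, but the pools differed by far more in the activated gate than in the mature gate. The fitted log2 difference was 4.07 ± 0.53 (edgeR adjusted p = 1.58e-04). In YO2 the 320 UMIs came from 69 of 229 activated cells, with up to 29 in a cell and 34.4% of them in the top 5 cells, and in YO1 4 cells of 39 held 1 UMI each. After each cell was thinned to 500 UMIs, 18.3% of activated cells of YO2 held Hilpda (95% exact binomial interval 13.5 to 24.0%) and 0% of those of YO1 (upper limit 9.03%), against 0.348% and 0.549% of mature cells, and 0.333% and 1.001% of B cells. The B cells stood in for the level of free RNA, which was not measured. Without thinning, the shares were 10.3% and 30.1% of activated cells, against 0.840% and 1.36% of mature cells. Hilpda was not limited to this gate, as the cells of YO2 that fell in no gate held 1623 of its UMIs, or 80.4 CPM.

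Vegfa had 53.8 and 294 CPM in activated cells, against 43.7 and 52.7 CPM in mature cells (log2 difference 1.59 ± 0.37, edgeR adjusted p = 0.0076). In YO1 the groups lay close together, and in YO2 they were far apart. Eno2 had 9 UMIs in activated cells and 4 in mature cells, a ratio of CPM of 102 with a counting interval of 28.4 to 452 (edgeR adjusted p = 0.0031). Of the 9 UMIs, 8 lay in 2 cells of YO2, so the call rests on 3 cells. Egln3, the hydroxylase that marks Hif1a for destruction, had 17.9 and 71.6 CPM in activated cells and 27.9 and 34.4 CPM in mature cells and did not pass the test (log2 difference 0.36 ± 0.36, edgeR adjusted p = 0.518). Likewise Ankrd37 was at 0 and 19.9 CPM against 6.44 and 11.98 CPM, with the pools on opposite sides. Bnip3, a target of the same factor, had 89.7 and 63.6 CPM in activated cells and 86.3 and 97.5 CPM in mature cells, with pools of opposite sign in CPM and a fitted log2 difference of -0.90 ± 0.29 (edgeR adjusted p = 0.0369).

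The glycolytic members that fell were led by Hk3, the hexokinase most typical of myeloid cells, which had 35.9 and 59.6 CPM in activated cells, against 173 and 128 CPM in mature cells (log2 difference -1.83 ± 0.35, edgeR adjusted p = 0.0027). Its groups did not overlap. Slc2a3 had 260 and 294 CPM in activated cells and 649 and 433 CPM in mature cells (-1.38 ± 0.33, edgeR adjusted p = 0.0095). Gpi1 had 260 and 177 CPM against 376 and 314 CPM (-1.21 ± 0.29, edgeR adjusted p = 0.0098), and Pfkfb4 had 89.7 and 51.7 CPM against 117 and 98.1 CPM (-1.25 ± 0.29, edgeR adjusted p = 0.0071). Slc16a3 had 224 and 374 CPM in activated cells and 549 and 442 CPM in mature cells (-1.16 ± 0.34, edgeR adjusted p = 0.0260). Pkm, pyruvate kinase, had 682 and 628 CPM in activated cells and 1209 and 824 CPM in mature cells (-1.08 ± 0.31, edgeR adjusted p = 0.0233). Activated cells are deeper (median 2303 and 1692 UMIs against 1026 and 1345), and per cell Hk3 was still lower, at 0.103 and 0.131 UMIs against 0.208 and 0.202. Slc2a3, at 0.744 and 0.646 UMIs per activated cell and 0.777 and 0.684 per mature cell, and Pkm, at 1.95 and 1.38 against 1.45 and 1.30, were not lower by as much or at all on that scale.

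Among the members that did not pass the test in activated cells, Hk2 had 35.9 and 117 CPM, against 37.6 and 46.7 CPM in mature cells, level in YO1 and higher in YO2 (log2 difference 0.73 ± 0.37, edgeR adjusted p = 0.186). Slc2a1 had 108 and 165 CPM in activated cells and 123 and 112 CPM in mature cells, on opposite sides in the pools. The phosphofructokinases Pfkl, at 44.9 and 27.8 CPM against 15.6 and 12.1 CPM, and Pfkp, at 62.8 and 43.7 CPM against 22.6 and 19.7 CPM, and the isomerase Tpi1, at 89.7 and 61.6 CPM against 33.3 and 30.8 CPM, were each higher in CPM in both pools. Their log2 differences of 0.82 ± 0.41, 0.82 ± 0.40 and 0.69 ± 0.29 did not pass the edgeR test with TMM (adjusted p = 0.175, 0.164 and 0.107), and these are the members that total UMIs added as higher, with Hk2. Hif1a had 62.8 and 113 CPM in activated cells and 91.1 and 99.7 CPM in mature cells, which overlap.

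Leaving out each sum in turn gave 4 to 7 called members, and Hk3 alone was called each time, at -3.12 without the activated cells of YO2 and at -1.38 without those of YO1. Without the activated cells of YO2 Hilpda stood at 1.47 (edgeR adjusted p = 0.489) and Vegfa at -0.54, its direction reversed, and 7 members were called, all lower, with Slc16a3 at -1.99 and Pkm at -1.69. Without the activated cells of YO1, the sum with the endothelial RNA, 6 members were called, and Slc2a3, Slc16a3 (at -0.68), Pkm (at -0.65) and Bnip3 lost their calls, while Hilpda, Vegfa, Hk3, Gpi1 and Pfkfb4 kept them. Without the mature cells of YO1 4 were called (Bnip3, Pfkfb4, Pkm, Slc16a3 and Slc2a3 lost) and without those of YO2 5 (Bnip3, Gpi1, Pkm and Vegfa lost). Eno2 could not be tested in any of these fits. The adjusted p of a lost call ran from 0.0520 to 0.642. When the activated gate asked for a UMI of the neutrophil receptors Csf3r or Cxcr2 and none of 3 endothelial genes, in place of the S100 share, it held 43 and 631 cells, and Hilpda had 21.4 and 559 CPM, Vegfa 26.7 and 274 CPM, Slc2a3 107 and 175 CPM and Hk3 26.7 and 49.4 CPM in them. Under that gate 17 members were called, 5 as higher and 12 as lower, and the 9 of the 10 members above that could be tested all were. The gate held more cells, and the share of all genes called under it is not given here, so its count is not set against the main one.

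Promoter sequences are shown for the 6 members with the smallest adjusted p in activated cells for which RefSeq's promoter table (GRCm38.p6) has an entry, because these members moved in opposite directions. Each runs 5′ to 3′ on the gene's strand, from 250 bases before to 50 after the start, with the string ACGTG in capitals wherever it stands on either strand, and likewise the string GCGTG. Hilpda lies at chr6:29272238-29272537 (+), Hk3 at chr13:55021336-55021635 (-), Eno2 at chr6:124769624-124769923 (-), Pfkfb4 at chr9:108991652-108991951 (+), Vegfa at chr17:46032328-46032627 (-) and Gpi1 at chr7:34230287-34230586 (-).
Hilpda: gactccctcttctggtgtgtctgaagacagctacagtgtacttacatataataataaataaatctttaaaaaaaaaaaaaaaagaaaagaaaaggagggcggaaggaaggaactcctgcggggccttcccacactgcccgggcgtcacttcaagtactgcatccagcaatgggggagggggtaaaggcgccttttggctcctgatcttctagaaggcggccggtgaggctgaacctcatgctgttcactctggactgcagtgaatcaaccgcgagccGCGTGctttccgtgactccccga
Hk3: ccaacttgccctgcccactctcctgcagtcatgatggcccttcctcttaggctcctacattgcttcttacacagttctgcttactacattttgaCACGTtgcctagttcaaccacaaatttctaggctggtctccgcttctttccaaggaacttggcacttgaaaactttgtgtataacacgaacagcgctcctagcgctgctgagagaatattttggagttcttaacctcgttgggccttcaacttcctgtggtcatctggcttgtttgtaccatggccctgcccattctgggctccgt
Eno2: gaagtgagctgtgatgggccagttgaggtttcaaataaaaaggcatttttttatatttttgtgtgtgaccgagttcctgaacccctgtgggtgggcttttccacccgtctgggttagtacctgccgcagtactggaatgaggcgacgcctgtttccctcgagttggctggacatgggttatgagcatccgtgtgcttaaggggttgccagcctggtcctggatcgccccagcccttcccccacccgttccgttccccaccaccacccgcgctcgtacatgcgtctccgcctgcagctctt
Pfkfb4: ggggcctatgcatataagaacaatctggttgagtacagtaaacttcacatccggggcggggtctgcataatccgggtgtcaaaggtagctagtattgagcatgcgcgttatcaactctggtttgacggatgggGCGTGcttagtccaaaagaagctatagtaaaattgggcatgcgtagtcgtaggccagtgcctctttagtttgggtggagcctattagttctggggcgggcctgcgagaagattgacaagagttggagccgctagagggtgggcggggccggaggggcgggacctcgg
Vegfa: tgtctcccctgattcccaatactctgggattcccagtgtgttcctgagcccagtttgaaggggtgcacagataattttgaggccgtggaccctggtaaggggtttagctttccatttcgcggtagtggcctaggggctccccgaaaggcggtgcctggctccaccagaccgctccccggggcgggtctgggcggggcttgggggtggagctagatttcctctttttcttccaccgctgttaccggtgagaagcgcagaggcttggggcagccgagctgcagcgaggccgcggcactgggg
Gpi1: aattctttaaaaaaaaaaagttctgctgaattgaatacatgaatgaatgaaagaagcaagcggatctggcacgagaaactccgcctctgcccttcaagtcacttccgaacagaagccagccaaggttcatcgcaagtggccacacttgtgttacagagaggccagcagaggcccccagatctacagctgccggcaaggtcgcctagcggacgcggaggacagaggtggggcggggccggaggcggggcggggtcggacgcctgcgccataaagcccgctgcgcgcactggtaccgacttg
In the windows shown, the first listed for each gene, Hilpda and Pfkfb4 hold 1 match to GCGTG each and Hk3 holds 1 match to ACGTG, while Eno2, Vegfa and Gpi1 hold neither string. The table lists a second start for Hilpda, whose window holds 1 match to ACGTG and 2 to GCGTG, and for Vegfa, whose window holds 1 match to each. Over the module, 22 of the 29 members with an entry hold either string in their first listed promoter, against 43.8% of the 32851 promoters in the table. ACGTG was found for 15 members, against 19.6% of all promoters, and GCGTG for 14, against 32.4%. These are matches of letters in a window and not binding sites. Slc2a3, Bnip3l and Eno1b had no entry.

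In macrophages the module was lower almost throughout. Of the 31 members tested, 22 were lower in macrophages than in mature neutrophils (28.0% of all genes were) and 1, Aldoc, was higher (35.3% of all genes were). The median log2 difference was -1.33 over the members and 0.18 over all genes. Scaling to total UMIs, which shifts the median of all genes by 0.62, gave 18 lower and 3 higher members, with Pfkl and Tpi1 added to Aldoc, and no called member changed sign. A macrophage holds more UMIs than a mature neutrophil (median 3125 and 4491 against 1026 and 1345), so a lower share does not always mean fewer molecules per cell.

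The transporters were among the members that differed most, with some of the hypoxia genes. Slc2a3 had 70.8 and 79.6 CPM in macrophages, against 649 and 433 CPM in mature neutrophils (log2 difference -3.40 ± 0.35, edgeR adjusted p = 4.30e-07), and it was lower per cell too, at 0.236 and 0.393 UMIs in macrophages against 0.777 and 0.684. Slc16a3 had 144 and 112 CPM in macrophages and 549 and 442 CPM in mature cells (-2.58 ± 0.34), and Slc2a1 had 44.6 and 29.97 CPM against 123 and 112 CPM (-2.36 ± 0.34). Ankrd37 had 6 UMIs in macrophages and 265 in mature cells (-3.31 ± 0.64). Egln3 had 5.24 and 9.07 CPM in macrophages and 27.9 and 34.4 CPM in mature cells (-2.66 ± 0.36), and Vegfa had 6.55 and 19.3 CPM against 43.7 and 52.7 CPM (-2.38 ± 0.42). Bnip3 had 35.4 and 33.5 CPM against 86.3 and 97.5 CPM (-2.07 ± 0.24), although its count per cell was alike, at 0.118 and 0.165 UMIs in macrophages and 0.103 and 0.154 in mature cells. The largest edgeR adjusted p among these 7 was 2.53e-04. In each of them both macrophage values lay below both mature values. That separation was not counted over all genes, of which 63.4% were called either way in this comparison.

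**Figure D4:**
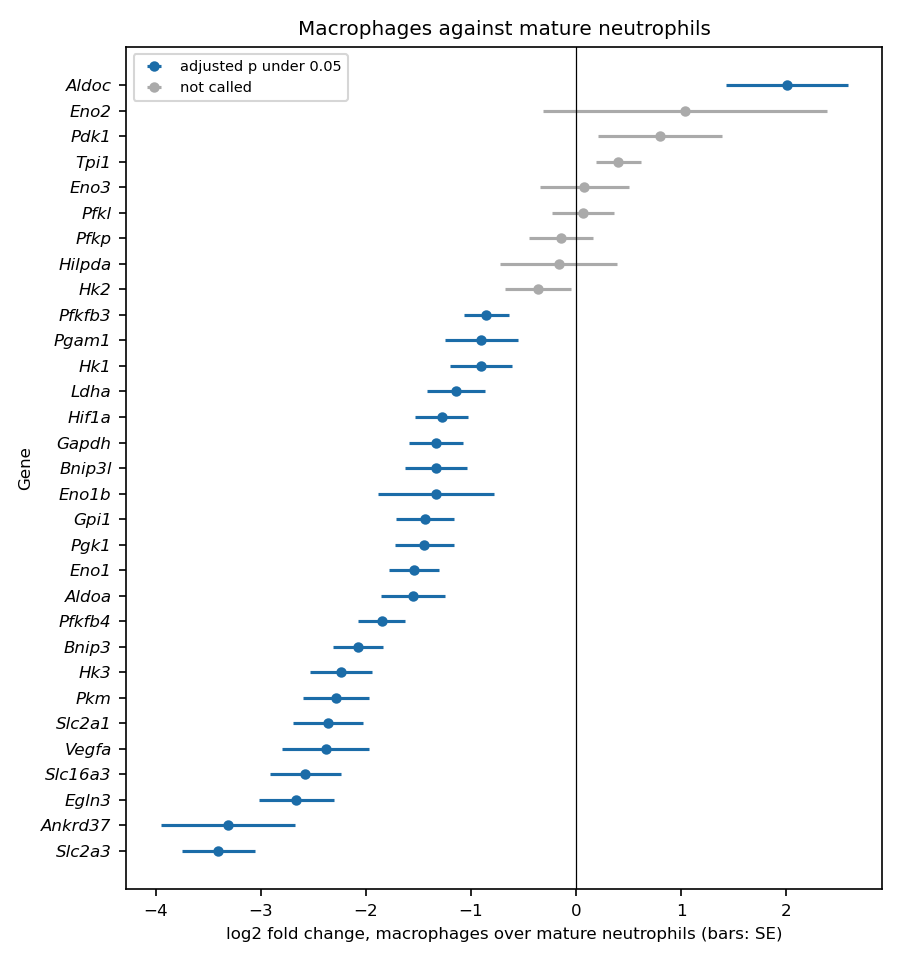
Log2 difference between macrophages and mature neutrophils for the 31 members tested, with its SE from edgeR. Blue points passed the test and grey ones did not; Aldoc at 2.01 is the sole blue point above 0, and Slc2a3 at -3.40 is the lowest.

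Among the enzymes, Pkm (-2.28 ± 0.32) and Hk3 (-2.23 ± 0.30) fell most. Pkm had 355 and 274 CPM in macrophages and 1209 and 824 CPM in mature neutrophils, and Hk3 had 57.7 and 40.6 CPM against 173 and 128 CPM. Pfkfb4 fell by 1.85 on the log2 scale, at 43.3 and 45.7 CPM in macrophages, against 117 and 98.1 CPM in mature cells. The remaining called members fell by less: Aldoa by 1.55, Eno1 by 1.54, Pgk1 and Gpi1 by 1.44, Eno1b, Bnip3l and Gapdh by 1.33, Hif1a by 1.28, Ldha by 1.14, Hk1 and Pgam1 by 0.90 and Pfkfb3 by 0.85 on the log2 scale, with edgeR adjusted p up to 0.0442. For Hk1 the pools had opposite signs in CPM. Aldoc, another aldolase, had 9.18 and 9.86 CPM in macrophages and 1.47 and 1.61 CPM in mature cells (2.01 ± 0.58, edgeR adjusted p = 0.0060).

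The members that did not pass the test in macrophages were Tpi1, Pdk1, Hk2, Eno2, Pfkp, Hilpda, Pfkl and Eno3. Tpi1 had 72.1 and 58.4 CPM in macrophages and 33.3 and 30.8 CPM in mature cells, with a log2 difference of 0.40 ± 0.21 (edgeR adjusted p = 0.108). Hilpda had 15.7 and 26.8 CPM in macrophages and 9.29 and 15.8 CPM in mature cells (-0.17 ± 0.56, edgeR adjusted p = 0.810). Leaving out each sum in turn gave 18 to 21 called members, and 18 of the 23 calls held each time. Aldoc lost its call without either mature sum or the macrophages of YO2, Hk1 without either mature sum or the macrophages of YO1 (then at -0.54), Pfkfb3 without either YO2 sum, and Pgam1 without any of the 4. Their adjusted p then ran from 0.0611 to 0.195. Without the macrophages of YO2 Hk1 stood at -1.56, and Ankrd37 is at 0 in the macrophages left. Eno1b could be tested in 1 of the 4 fits, where it kept its call.

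Hk3 took a smaller share of hexokinase UMIs, and Slc2a3 of glucose transporter UMIs, in activated neutrophils and in macrophages than in mature neutrophils of both pools, although Slc2a3 still took most of the transporter UMIs in each. Isoform use is given as the share of a gene family's UMIs, with no correction for transcript length, and so is compared between gates and not between genes. Hk3 made up 57.9 and 58.8% of the UMIs of Hk1, Hk2 and Hk3 in cycling cells, 59.4 and 59.1% in Ltf-positive, 65.5 and 72.7% in Ngp-positive and 70.4 and 64.7% in mature cells. In activated cells its share was 40.0% in YO1 and 29.4% in YO2, and in macrophages 41.9 and 38.0%. Thus every neutrophil stage in both pools was above both activated and both macrophage values. The exact 95% interval of the activated share was 20.8 to 39.3% in YO2 and 12.2 to 73.8% in YO1, where it rests on 4 of 10 UMIs. Hk2, the inducible hexokinase, ran the other way, with 40.0 and 57.8% in activated cells and 44.8 and 40.2% in macrophages, against 15.3 and 23.6% in mature neutrophils.

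**Figure D5:**
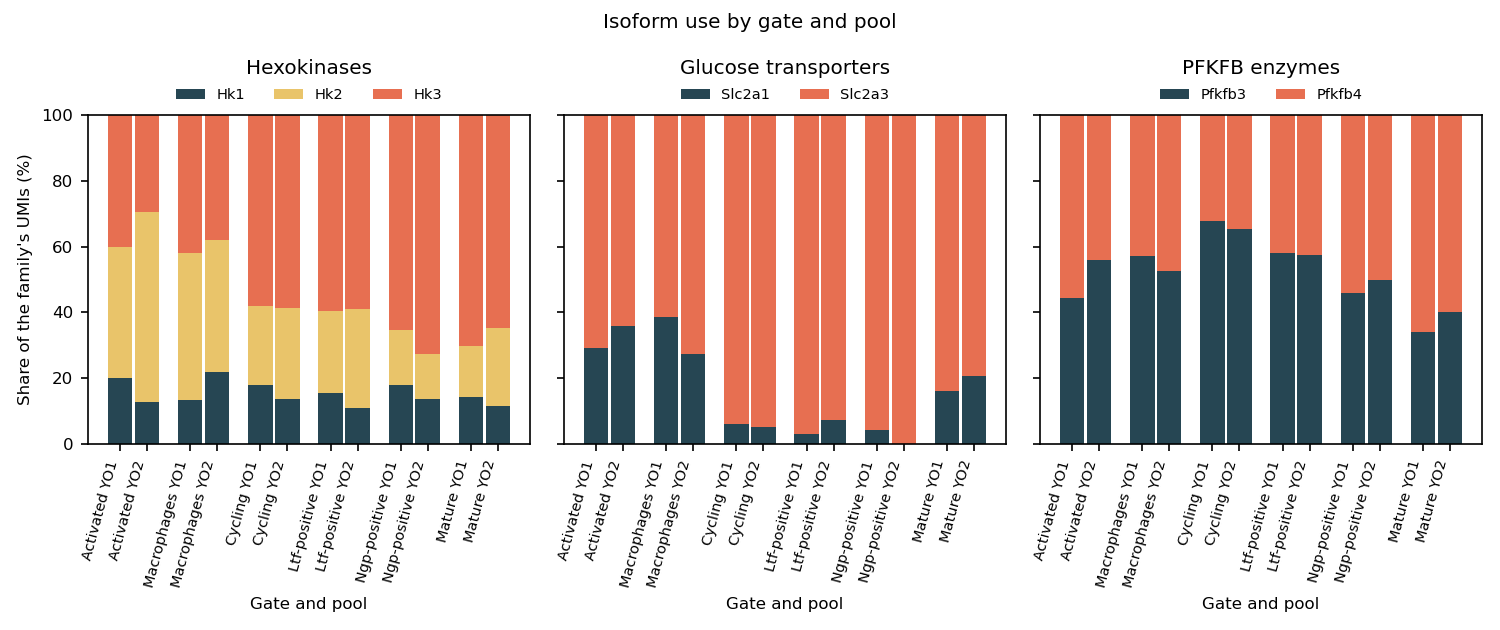
Share of each gene family's UMIs, in percent, taken by its members in each gate, with a bar for each pool. Hk3 takes 64.7 to 70.4% of hexokinase UMIs in mature neutrophils and 29.4 to 40.0% in activated ones, and Slc2a1 takes 16.0 to 20.6% and 29.3 to 35.9% of the UMIs of Slc2a1 and Slc2a3.

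Of the glucose transporters, Slc2a1 made up 29.3 and 35.9% of the UMIs of Slc2a1 and Slc2a3 in activated cells and 38.6 and 27.3% in macrophages, against 16.0 and 20.6% in mature neutrophils. Earlier stages were lower, at 6.06 and 5.13% in cycling, 3.03 and 7.26% in Ltf-positive and 4.17 and 0% in Ngp-positive cells. Of the 2 fructose 2,6-bisphosphate enzymes counted, Pfkfb4 took 32.3 and 34.5% in cycling, 42.0 and 42.6% in Ltf-positive, 54.1 and 50.0% in Ngp-positive and 65.8 and 59.7% in mature cells, a larger share at each later stage in both pools. The Ngp-positive share of YO2 rests on few UMIs, since 3 counts make 27.7 CPM in that sum. Pfkfb4 took 55.6 and 44.1% in activated cells and 42.9 and 47.3% in macrophages. Phosphofructokinase use was alike in these gates. Pfkp took 58.3 and 61.1% of the family in activated cells, 57.7 and 50.4% in macrophages and 58.8 and 61.3% in mature neutrophils, and Pfkl took most of the rest. Eno1 took 62.5 and 82.0% of enolase UMIs in activated cells, 56.1 and 82.0% in macrophages and 72.4 and 92.0% in mature neutrophils, with the pools further apart than the gates. Aldoa took 97.8% or more of aldolase UMIs in every gate and pool. No test was made of these shares.

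Related genes outside the module were taken from 6 lists. Their counts stand against 29.0% of all genes higher and 30.1% lower in mature than in cycling cells, 7.61% and 10.9% in activated than in mature cells, and 35.3% and 28.0% in macrophages than in mature cells. Of 8 pentose phosphate genes, which divert glucose 6-phosphate to make NADPH for the oxidative burst, 1 was higher and 5 were lower in mature than in cycling cells. Taldo1, transaldolase, was the higher one, at 2036 and 2238 CPM in mature and 829 and 1038 CPM in cycling cells. In activated cells 0 were higher and 3 lower than in mature cells (Taldo1, G6pdx and Pgd), and in macrophages 1 was higher and 3 were lower. Of 12 glycogen genes, 1 was higher (Pygl, the glycogen phosphorylase of liver and leukocytes) and 7 were lower in mature than in cycling cells. Pygl was lower in activated cells, at 413 and 495 CPM, than in mature cells, at 1004 and 784 CPM (log2 difference -1.40 ± 0.33, edgeR adjusted p = 0.0082), the 1 glycogen gene called there. In macrophages 2 glycogen genes were higher and 7 lower.

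Slc2a6, a further glucose transporter, was 1 of 5 other isoforms tested, and its level was higher at each later stage in both pools. It had 7.04 and 8.80 CPM in cycling, 24.8 and 29.5 CPM in Ltf-positive, 81.8 and 64.6 CPM in Ngp-positive and 155 and 154 CPM in mature cells, a log2 difference of 4.85 ± 0.29 between the ends. The other 4 isoforms tested (Ldhb, Ldhc, Slc16a1 and Tigar) were lower in mature than in cycling cells. Of 10 genes of pyruvate entry into mitochondria tested, 1 was higher (Mpc1, a subunit of the mitochondrial pyruvate carrier) and 6 were lower in mature cells, while macrophages had 4 higher and 2 lower than mature cells and activated cells 0 higher and 1 lower (Mpc1).

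Of 20 further hypoxia targets and oxygen sensors tested, 8 were higher and 2 lower in mature than in cycling cells, 3 were higher and 5 lower in macrophages than in mature cells, and 3 were higher and 3 lower in activated than in mature cells. In activated cells those higher were Adm, Bhlhe40 and Tfrc, and those lower were Cited2, Mxi1 and Ndrg1. Adm, at 17.9 and 7.95 CPM in activated cells, and Tfrc, at 0 and 25.8 CPM, rest on few UMIs. In those sums 3 counts make 26.9 and 5.96 CPM. Tfrc had 3.51 and 4.31 CPM in mature cells, so its pools lay on opposite sides. Bhlhe40, a transcriptional repressor, had 108 and 358 CPM in activated cells, against 16.4 and 20.1 CPM in mature cells (log2 difference 3.39 ± 0.38), and like Hilpda and Vegfa it was higher in the activated cells of YO2 than in those of YO1. Ndrg1, a stress-induced gene, had 117 and 53.7 CPM in activated cells and 109 and 151 CPM in mature cells (-1.41 ± 0.32, edgeR adjusted p = 0.0071), with the pools on opposite sides. With total UMIs this list had 6 higher and 0 lower in activated cells, 6 and 2 in macrophages, and 6 and 5 in mature against cycling cells. Of 6 other transcription factors of glycolysis tested, 3 were higher and 3 lower in mature than in cycling cells, 2 and 2 in macrophages, and 1 (Myc) and 2 (Max and Foxk1) in activated cells. Myc had 0 and 15.9 CPM in activated cells, against 1.14 and 1.61 CPM in mature cells, with the pools on opposite sides.

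The median log2 difference between mature and cycling cells was -1.36 for the pentose phosphate list, -1.04 for glycogen, -0.99 for pyruvate entry, -3.00 for the other isoforms, 0.53 for the further hypoxia genes and 0.26 for the transcription factors, against 0.00 for all genes and 0.49 for the members. Between activated and mature cells the medians, with the lists in the same order, were -0.88, -0.71, 0.44, 1.92, 0.24 and -0.07, against -0.12 for all genes. Between macrophages and mature cells, in that order again, they were -0.57, -0.89, 0.39, 1.57, -0.30 and -0.30, against 0.18 for all genes. The medians of the other isoforms rest on few UMIs. In activated cells Ldhb had 26.9 and 0 CPM, Slc16a1 35.9 and 0 CPM, Ldhc 0 in both pools and Tigar 17.9 and 7.95 CPM. The activated sum of YO1 is the one with the endothelial RNA, and 3 counts make 26.9 CPM in it. In macrophages none of these genes was above 8.28 CPM. Scaling to total UMIs changed some counts. In macrophages it gave 2 higher and 3 lower pentose phosphate genes, 3 and 4 glycogen genes, 7 and 1 genes of pyruvate entry, 3 and 1 other isoforms and 2 and 1 transcription factors. In activated cells it gave 2 higher and 0 lower genes of pyruvate entry, 1 and 0 other isoforms and 1 and 1 transcription factors, where TMM had called 1 and 1 other isoforms, Tigar as higher and Slc2a6 as lower. In macrophages TMM had called 1 and 1, again Tigar and Slc2a6.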

How the data were processed

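Cells of 2 pools were captured on BD Rhapsody cartridges and sequenced as whole transcriptomes. The authors deposited counts of UMIs per gene and cell, made against mm10 per the submitters' processing notes; the aligner, the annotation and any use of strand in counting were not given in the sources used here. Files of sample tags were not used, since their barcodes were not tied to the cells here. UMIs were summed per pool and gate (12 sums of at least 30 cells), scaled by TMM and tested with edgeR 4.0.16 (quasi-likelihood, two-sided, filterByExpr, all sums in 1 fit, pool as a block) in R 4.3.3, with limma 3.58.1 and Benjamini-Hochberg adjustment over all 9883 genes at 0.05. The block is the cartridge, which all gates of a pool share by design. SEs are the log2 difference divided by the square root of F. DESeq2 1.42.0 was an alternative. Shares per cell used cells thinned to 500 UMIs, leaving out shallower ones (189 mature cells of YO1 and 0 of YO2, 0 activated cells), with exact Clopper-Pearson 95% intervals. A gene listed at 0 has a floor of 3 counts. All else was computed in Python 3.11.15 (pandas 2.3.3, scipy 1.17.1, numpy 2.4.6; figures with matplotlib 3.10.9). The code was tested on simulated data.

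Members that passed the test are named with their values; other genes came from 6 lists of the pathway, and promoters from the members called in activated cells in order of adjusted p. Members, lists and gates were chosen with earlier results of these data known. Alternatives were another scaling, tool, filter on genes and filter on cells, the gates without their added conditions, a C1q threshold of 10, no block, each sum left out in turn and, chosen after seeing the data, cells with 0 UMIs of 3 endothelial genes and under 20 of Igha and Jchain, no cells among the deepest 5%, and the receptor gate.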

Additional observations from a re-analysis of the deposited data

How the results depend on the processing

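Leaving out each sum in turn gave 0 to 10 called members for Ltf-positive against cycling cells, 0 to 0 for Ngp-positive against Ltf-positive, 1 to 4 for mature against Ngp-positive, 9 to 12 for mature against cycling, 4 to 7 for activated against mature and 18 to 21 for macrophages against mature cells. The fit with no replicate block called 4 members for Ltf-positive against cycling, 1 for mature against Ngp-positive and 6 for activated against mature cells, and changed no other count by more than 1.5 times. The gates as worded, without the added conditions, gave 18 for Ltf-positive against cycling, 1 for mature against Ngp-positive and 17 for activated against mature cells, where the receptor gate also gave 17. They moved 7 isoform shares by more than the SD between pools, to 52.6% (Hk3), 28.4% (Hk2), 89.6% (Slc2a3) and 36.8% (Pfkfb4) in cycling cells, to 57.6% (Slc2a3) and 63.6% (Pfkp) in activated cells, and for Pfkp in Ltf-positive cells to 57.0%, against 56.7%. Larger shifts, within a wider spread, were those of Pfkp in cycling cells (64.7% against 49.0%) and Eno1 in activated cells (60.4% against 72.3%). Without cells of 1 or more endothelial or 20 or more plasma cell UMIs, which leaves 23 activated cells in YO1 and so drops that sum, 19 were called for Ltf-positive against cycling, 4 for Ngp-positive against Ltf-positive and 10 for mature against Ngp-positive cells. Total UMIs gave 8 for mature against Ngp-positive and 1 for Ngp-positive against Ltf-positive cells, where DESeq2 gave 2, no filter on low counts 3 and removal of the deepest 5% of cells 1. Gpi1 in mature against cycling cells reversed to 0.012 under the gates as worded, and Vegfa in activated against mature cells ran from -0.54 without the activated cells of YO2 to 2.20 without those of YO1; the cause was not tested. Of the 62 calls of members in the 6 comparisons, 500 UMIs per cell kept 62, total UMIs 50, DESeq2 52 and the fit without the block 42. The 33 Ngp-positive cells of YO2 and the 39 activated cells of YO1 set the depth of the comparisons that use them. The counts under these settings are of members alone, and the share of all genes called under each is not given here.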
